A study of Mus musculus with 8 samples.

Results

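Messenger RNA of 10 genes of the BCL-2 family was examined in donor T cells of the mouse spleen on day 6 after hematopoietic cell transplantation (HCT). The genes are Bcl2, Bcl2l1, Mcl1 and Bcl2a1b, which encode survival proteins, Bax and Bak1, which encode the pore-forming effectors, and Bcl2l11, Bbc3, Pmaip1 and Bid, which encode BH3-only death signals. They were chosen by name as the rows of a table of 25078 genes, and all 10 passed the filter on low counts that left 12428 genes for testing. The table covers 4 groups with 2 libraries each, which were CD4 and CD8 T cells from WT donors and both kinds from STAT3KO donors. The WT donors were C57BL/6 mice, and the STAT3KO donors were C57BL/6 mice whose floxed Stat3 had been removed by a Cre recombinase under Cd4 control, which acts in all T cells that pass through the stage bearing CD4. Every recipient was a lethally irradiated BALB/c mouse that also received T cell-depleted bone marrow from WT C57BL/6 mice. All groups thus share an alloreactive setting, and there was no group at rest. The paper describes recipients of WT T cells as having graft-versus-host disease (GVHD) and recipients of STAT3-deficient T cells as non-GVHD. Donor genotype and disease of the recipient therefore go together and cannot be told apart in any STAT3KO comparison. Donor T cells were sorted by the donor MHC molecule H-2Kb, TCRβ and CD4 or CD8, and each library combined the cells of several recipients, so a replicate stands for a pool of mice. The ages of the mice are not given in the sources used here, and p-values measure the spread between these pools only.

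Proteins of the BCL-2 family decide at the outer mitochondrial membrane whether a cell enters apoptosis. BAX and BAK form pores that release cytochrome c, the survival proteins BCL-2, BCL-XL (from Bcl2l1), MCL-1 and A1 (from the Bcl2a1 genes) hold them in check, and BH3-only proteins such as BIM (from Bcl2l11), PUMA (Bbc3), NOXA (Pmaip1) and BID neutralize the survival proteins or activate the effectors. In T cells, BCL-2 sustains naive and memory cells under cytokine signals, whereas BIM drives the contraction of an activated population. STAT3 is a transcription factor downstream of cytokines such as IL-6 and IL-21, and Bcl2, Bcl2l1 and Mcl1 are textbook STAT3 target genes in other settings.

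In CD4 T cells, Bcl2 was the single member called with the loss of STAT3 in the fit without the replicate number. It fell to 65.3% of the WT level. The call held in 15 of 18 alternative fits and was lost without any of 3 of the 4 CD4 libraries. In CD8 T cells the same contrast called no member. With the replicate number as a block, Bak1 (higher) and Pmaip1 (lower) were also called in CD4, and Bcl2 and Bcl2l1 (both lower) in CD8 T cells. Between the lineages, WT CD8 T cells had less Bcl2, Mcl1 and Bbc3 and more Bcl2l11, Bak1 and Bid than WT CD4 T cells. Without STAT3, Bcl2 and Bcl2l1 were lower in CD8 than in CD4 T cells. The block raised the members called in that comparison from 2 to 9, and all genes called from 12.5% to 29.7%. In WT it raised them from 6 to 8 and from 23.8% to 42.1%. Counts scaled to library size (CPM, by the TMM method unless stated) of each gene in each library are given below, together with the log2 fold change, its standard error (SE) and the adjusted p of the edgeR quasi-likelihood test, in which a gene is called at an adjusted p under 0.05.

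**Figure D1:**
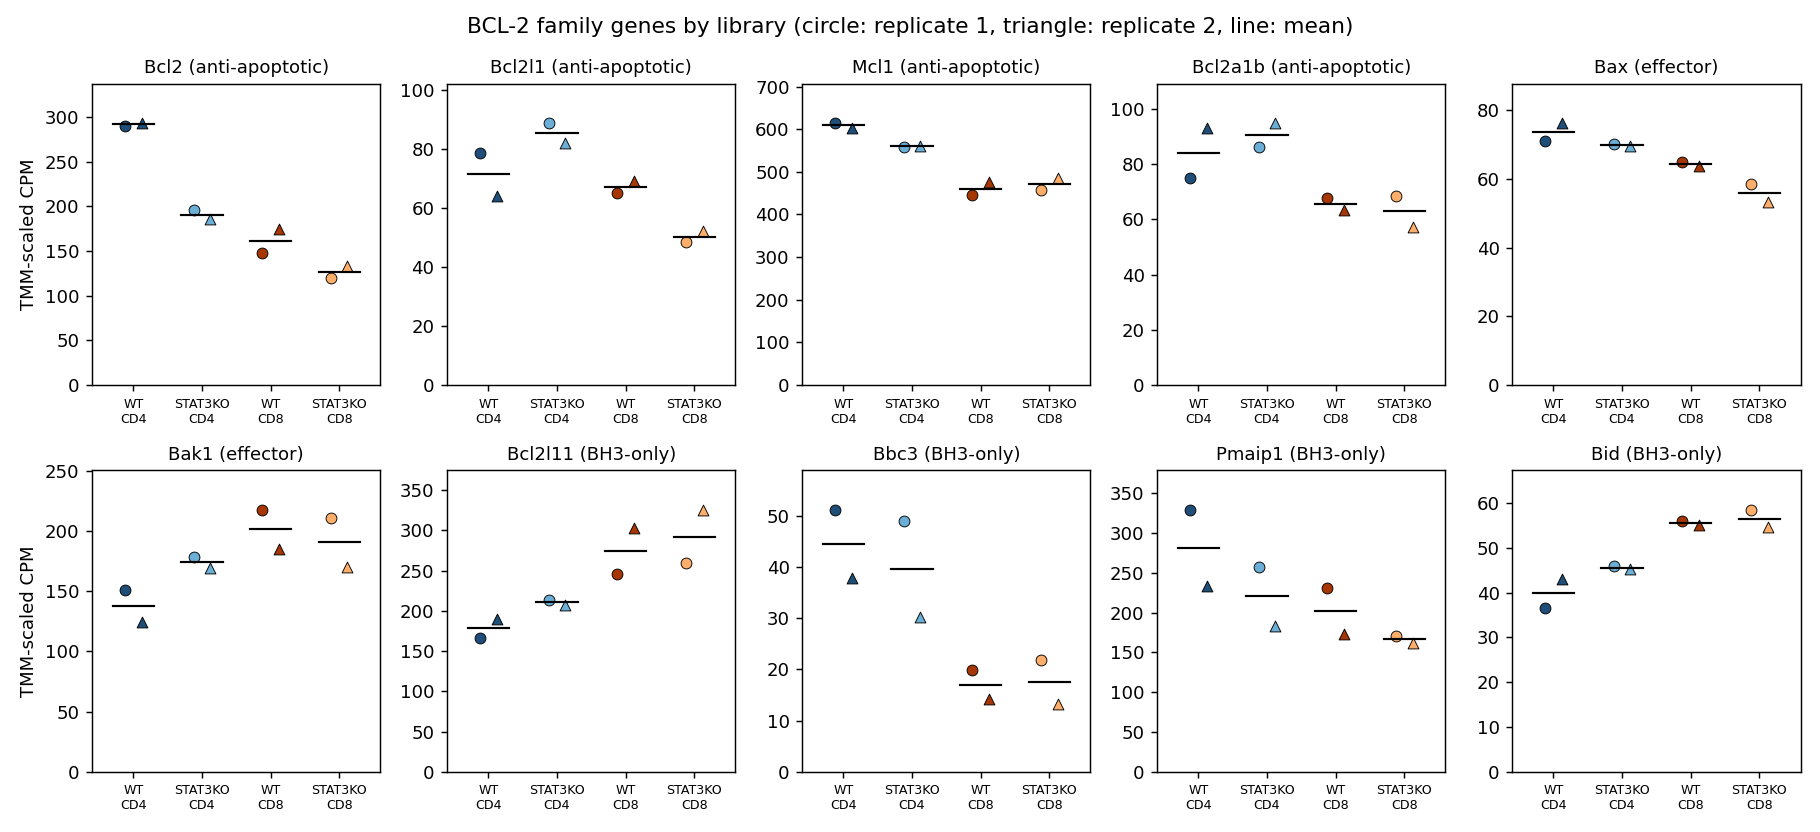
TMM-scaled CPM of the 10 genes, with 1 panel per gene, the 4 groups on the x axis, each point a library (circles replicate 1, triangles replicate 2) and the line the mean of 2 libraries. Bcl2 steps down from 290.2 and 294 CPM in WT CD4 to 119.8 and 133 CPM in STAT3KO CD8 T cells, whereas Bcl2l11 and Bid are higher in all 4 CD8 libraries than in any CD4 library.

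The libraries held between 20171396 and 23282757 counts, and the members had between 295 counts (the lowest library of Bbc3) and 12779 counts (the highest library of Mcl1). Stat3 fell in both lineages (log2 change of -1.63 in CD4, with an edgeR adjusted p of 0.000753, and of -1.72 in CD8, with 0.00536), as the labels state. Cd4 was between 1403 and 1597 CPM by library total in CD4 libraries and at most 8.05 in CD8 libraries, and the sum of Cd8a and Cd8b1 was between 1788 and 2098 in CD8 libraries and at most 51.9 in CD4 libraries. All 6 T cell markers were present in every library. Of the other cell types, hepatocyte markers summed to at most 0.174 CPM and erythroid markers to at most 5.38. Macrophage and monocyte markers summed to between 16.3 and 105 CPM, with all 6 above 3 counts in every library, and were higher in replicate 2 than in replicate 1 of each group. The dendritic cell list summed to between 161 and 273 CPM in CD8 libraries against at most 16.7 in CD4 libraries, which was carried by Itgax, while Flt3 had at most 1 count in any library. The B cell list summed to between 11.5 and 17.8 CPM in CD4 libraries of WT and between 2.51 and 3.37 in those of STAT3KO, with Ms4a1 at no more than 3 counts, and its difference lay in Pax5 (338 and 203 counts against 4 and 11). In CD8 libraries the B cell list summed to between 12.6 and 13.3 CPM, mostly from Cd79b. Neutrophil and NK cell lists summed to at most 21.1 and 88.5 CPM. The NK cell sum came from Klrb1c and Eomes, and Eomes averaged between 3.03 (CD4, WT) and 58.0 CPM (CD8, STAT3KO). Ncr1 averaged at most 0.146 CPM in any group. A list of 10 proliferation genes summed to between 1333 and 1688 CPM (CD4, WT), 2957 and 3106 (CD4, STAT3KO), 3549 and 4533 (CD8, WT) and 4862 and 5050 (CD8, STAT3KO). The groups therefore also differed in cell cycle genes and in some genes of the lists for other cell types. Their part in the results for the members was not tested. In these bulk samples, fewer cells that express a gene and less RNA of it per cell cannot be told apart.

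The first comparison asked how the family differs between STAT3KO and WT CD4 T cells. Of the 10 members, 1 was called, and it was lower. Among all 12428 genes tested, 11.6% were called, 6.54% higher and 5.08% lower. The median log2 fold change of the members was 0.014, beside 0.017 over all genes. For 7 members the STAT3KO and WT CD4 libraries did not overlap, 4 of them higher (Bcl2l1, Bcl2l11, Bak1 and Bid) and 3 lower (Bcl2, Mcl1 and Bax), against 53.5% of all genes (28.5% higher and 25.0% lower). A share of 1 in 10 is near the background, so the count says nothing particular of the family.

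The same question was asked in CD8 T cells, where 0 of the 10 members were called by edgeR, with 2 (Bcl2 and Bcl2l1) at an unadjusted p under 0.05 and 0 called by DESeq2, beside 2.07% of all genes called (1.34% higher and 0.732% lower). The members' median log2 fold change was -0.069, against -0.0071 over all genes. The libraries of STAT3KO and WT did not overlap for 4 members (Bcl2, Bcl2l1, Bax and Pmaip1), all lower in STAT3KO, against 49.7% of all genes (24.9% higher and 24.8% lower). With the replicate number as a block, 3 members were called in CD4 (30.1% of all genes) and 2 in CD8 T cells (18.2%), as given gene by gene below.

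CD8 T cells were compared with CD4 T cells of the same genotype to ask how the lineages differ. In WT, 6 of the 10 members were called, 3 higher and 3 lower, beside 23.8% of all genes (12.2% higher and 11.6% lower). In STAT3KO, 2 members were called by edgeR, both lower in CD8, beside 12.5% of all genes (5.84% higher and 6.67% lower). DESeq2 called 5 members there, beside 1978 of all 12428 genes. The members' median log2 fold change was -0.28 in WT and -0.36 in STAT3KO, against 0.0011 and 0.0018 over all genes. With the block these counts were 8 in WT (42.1% of all genes) and 9 in STAT3KO T cells (29.7%). The libraries of the lineages did not overlap for 9 members in WT, 3 higher and 6 lower in CD8 (59.3% of all genes, 29.2% higher), and for 9 in STAT3KO, 2 higher and 7 lower (58.3%, 29.6% higher and 28.7% lower), the exceptions being Bcl2l1 in WT and Bak1 in STAT3KO. Each of these comparisons shares libraries with a STAT3KO comparison, so they are not independent of it.

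Among the survival genes, Bcl2 (chromosome 1, 106538176 to 106714290, minus strand, mm10) differed between all groups in level. Its CPM was 290.2 and 294 (CD4, WT), 196 and 186 (CD4, STAT3KO), 147 and 175 (CD8, WT) and 119.8 and 133 (CD8, STAT3KO), replicate 1 before replicate 2. The WT CD4 libraries stood above all others, the STAT3KO CD8 libraries stood below all others, and none of the 4 groups overlapped. STAT3KO CD4 T cells had less Bcl2 than WT CD4 T cells by a log2 fold change of -0.61 (SE 0.12, edgeR adjusted p 0.0161). Bcl2 was called in this comparison in 15 of 18 alternative fits, among them DESeq2 and the replicate block. This call was lost without WT CD4 replicate 2, STAT3KO CD4 replicate 1 or STAT3KO CD4 replicate 2, fits that left 1 library in the group concerned. The log2 fold change stayed between -0.68 and -0.58 with any library left out.

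In CD8 T cells the loss of STAT3 went with a log2 fold change of Bcl2 of -0.35 (95% interval -0.62 to -0.075), which did not pass the test over all genes (edgeR adjusted p 0.162). With the replicate block it did (edgeR adjusted p 0.0260). The STAT3KO effects on Bcl2 in CD8 and CD4 T cells differed by 0.27 on the log2 scale (95% interval -0.12 to 0.65, edgeR adjusted p 0.837), so no difference between the lineages was shown. Bcl2 was lower in CD8 than in CD4 T cells in WT (log2 change -0.86, SE 0.12, edgeR adjusted p 0.00189) and in STAT3KO (-0.59, SE 0.12, edgeR adjusted p 0.0177). The WT call held with any library left out. The STAT3KO call was lost without any single STAT3KO library, with adjusted p between 0.0576 and 0.118 in those 4 fits.

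The 250 bases before the annotated start of Bcl2 (chr1:106714291-106714540, minus strand, RefSeq, GRCm38.p6) are shown because Bcl2 was the member called in the STAT3KO comparison. Capitals mark a match on either strand to GGG and CC with any 5 bases between them, a loose pattern of the NF-κB type.
Bcl2 promoter: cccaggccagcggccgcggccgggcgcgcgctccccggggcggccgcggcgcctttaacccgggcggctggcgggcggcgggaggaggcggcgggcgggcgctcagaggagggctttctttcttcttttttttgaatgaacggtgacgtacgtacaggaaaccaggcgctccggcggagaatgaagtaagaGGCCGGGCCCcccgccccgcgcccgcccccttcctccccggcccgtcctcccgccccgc
The STAT-type letters TTCNNNGAA, which read the same on both strands, were searched in windows of 250 bases before to 50 bases after the start. They were in 0 of the 14 windows of the 9 members with an entry in the promoter table, and in 8.30% of all 32851 windows. The NF-κB-type pattern was in 12 of the 14 windows and in 50.8% of all windows. Windows of Bbc3 overlap in part. The share of G and C in the members' windows was between 46.7% and 78% and was not taken into account, so these shares show no enrichment. A match here describes letters and is not a binding site, and the lack of a match concerns these windows only. Of the 10 members, Pmaip1 was not matched.

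Bcl2l1 (chromosome 2, 152758732 to 152831728, minus strand), the gene of BCL-XL, differed from Bcl2 in its pattern. Its CPM was 78.5 and 64.0 (CD4, WT), 88.7 and 81.9 (CD4, STAT3KO), 64.9 and 69.1 (CD8, WT) and 48.3 and 52.2 (CD8, STAT3KO). Both STAT3KO libraries were above WT in CD4 T cells and both were below WT in CD8 T cells. The log2 fold change with the loss of STAT3 was 0.26 in CD4 (95% interval -0.030 to 0.55, edgeR adjusted p 0.229) and was -0.42 in CD8 (95% interval -0.71 to -0.12, edgeR adjusted p 0.130), and neither was called. With the replicate block the CD8 value was called (edgeR adjusted p 0.0246) and the CD4 value was not (0.0884).

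The difference of these effects, CD8 minus CD4, was -0.67 for Bcl2l1 (SE 0.18, 95% interval -1.08 to -0.26). It did not pass the test over all genes (edgeR adjusted p 0.312) and did with the replicate block (0.0397). No gene of the 12428 tested passed the difference test by edgeR (0% called), with 982 at an unadjusted p under 0.05 and 188 called by DESeq2. Among the members, 0 were called by edgeR or DESeq2 and Bcl2l1 alone had an unadjusted p under 0.05. With the block 1 member, Bcl2l1, was called, beside 3.24% of all genes. In STAT3KO T cells, Bcl2l1 was lower in CD8 than in CD4 (log2 change -0.76, SE 0.13, edgeR adjusted p 0.00880), whereas in WT the libraries of the lineages overlapped (-0.089, SE 0.12, edgeR adjusted p 0.658). Without STAT3KO CD4 replicate 1 or STAT3KO CD8 replicate 1 the STAT3KO call was lost (edgeR adjusted p 0.0656 and 0.0695).

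Mcl1 (chromosome 3, 95658721 to 95663178, plus strand) encodes a short-lived survival protein. Its CPM was 615 and 604 (CD4, WT), 559 and 561 (CD4, STAT3KO), 446 and 475 (CD8, WT) and 458 and 485 (CD8, STAT3KO). CD4 libraries lay above CD8 libraries in both genotypes, and WT and STAT3KO libraries overlapped in CD8 T cells. The log2 fold change with the loss of STAT3 was -0.12 in CD4 (95% interval -0.34 to 0.099) and 0.033 in CD8 T cells (-0.19 to 0.25), so an effect beyond about these limits was not detected. WT CD8 T cells had less Mcl1 than WT CD4 T cells (log2 change -0.40, SE 0.095, edgeR adjusted p 0.0196). That call was lost without WT CD4 replicate 2, WT CD8 replicate 1 or WT CD8 replicate 2 (edgeR adjusted p 0.0517, 0.116 and 0.0595). In STAT3KO the difference was -0.25 (SE 0.095, edgeR adjusted p 0.139, and 0.0332 with the block).

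Bcl2a1b (chromosome 9, 89199273 to 89207838, plus strand) encodes a copy of A1, a survival protein induced by antigen receptor and NF-κB signals. Its CPM was 75.0 and 93.3 (CD4, WT), 86.1 and 94.97 (CD4, STAT3KO), 67.7 and 63.3 (CD8, WT) and 68.6 and 57.3 (CD8, STAT3KO). WT and STAT3KO libraries overlapped in each lineage, and every CD8 library was below every CD4 library. The CD8 against CD4 log2 fold change was -0.36 in WT (SE 0.14, edgeR adjusted p 0.109, and 0.0375 with the block) and -0.52 in STAT3KO (SE 0.14, edgeR adjusted p 0.0515, and 0.00960 with the block). DESeq2 called the difference in STAT3KO (adjusted p 0.0143).

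The mouse has several near-identical Bcl2a1 copies, so a read may fit more than 1 of them and the counts of each copy are uncertain. Coding sequences of 519 bases, taken as the longest open reading frame of GENCODE M21 transcripts, differ at 11 positions between Bcl2a1a and Bcl2a1b, at 7 between Bcl2a1a and Bcl2a1d, and at 6 between Bcl2a1b and Bcl2a1d, an identity of 97.9% to 98.8%. Their first 30 coding bases are shown, with capitals at the 5 positions that differ among the copies, because no other stretch of 30 holds more. The copies also differ at coding positions outside this stretch. Bcl2a1b and Bcl2a1d differ within it at position 4 alone, and beyond it at 48, 94, 312, 381 and 490.
Bcl2a1a: atgGctgagtCTgagCtcatgCatatccac
Bcl2a1b: atgGctgagtACgagTtcatgTatatccac
Bcl2a1d: atgTctgagtACgagTtcatgTatatccac
Of the stretches of 51 bases (the read length) in transcripts of Bcl2a1b, 78.7% also occur in transcripts of other genes, among them Bcl2a1d with 57.0% and Bcl2a1a with 40.5%. The deposited counts were 1271 to 2078 per library for Bcl2a1b, 278 to 411 for Bcl2a1d and 2 to 13 for Bcl2a1a. Bcl2a1d was 14.9 and 17.6 CPM (CD4, WT), 16.01 and 18.8 (CD4, STAT3KO), 14.7 and 14.1 (CD8, WT) and 13.5 and 12.5 (CD8, STAT3KO), and was called in none of the comparisons without the block.

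The pore-forming effectors differed from each other. Bax (chromosome 7, 45461695 to 45466898, minus strand) was 71.0 and 76.3 CPM (CD4, WT), 70.2 and 69.4 (CD4, STAT3KO), 65.0 and 63.6 (CD8, WT) and 58.6 and 53.3 (CD8, STAT3KO). Each group stood below the one before in that order with no overlap, but no comparison called Bax. The largest of its differences was between STAT3KO CD8 and STAT3KO CD4 T cells (log2 change -0.32, SE 0.099, edgeR adjusted p 0.0766, and 0.0181 with the block).

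Bak1 (chromosome 17, 27019812 to 27028627, minus strand) was 151 and 125 CPM (CD4, WT), 178 and 169.5 (CD4, STAT3KO), 218 and 185 (CD8, WT) and 211 and 170.1 (CD8, STAT3KO). WT CD4 libraries were the lowest, and the other 3 groups overlapped in part. With the loss of STAT3 in CD4 T cells the log2 fold change was 0.33 (95% interval -0.017 to 0.68, edgeR adjusted p 0.202), and with the replicate block it was called as higher (0.34, edgeR adjusted p 0.0107). The CD8 value was -0.080 (95% interval -0.43 to 0.27). Bak1 was higher in WT CD8 than in WT CD4 T cells (log2 change 0.55, SE 0.15, edgeR adjusted p 0.0360), and this call was lost without WT CD4 replicate 2, WT CD8 replicate 1 or either STAT3KO CD4 library, with an adjusted p of up to 0.203. In the deposited table the span of Bak1 lies within the reach of Ggnbp1 on the opposite strand, which had 5 to 13 counts.

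Among the BH3-only genes, Bcl2l11 (chromosome 2, 128126038 to 128162547, plus strand), the gene of BIM, was highest in CD8 T cells. Its CPM was 166 and 190.1 (CD4, WT), 214 and 207 (CD4, STAT3KO), 246 and 303 (CD8, WT) and 259 and 326 (CD8, STAT3KO). All CD8 libraries were above all CD4 libraries. The CD8 against CD4 log2 fold change was 0.62 in WT (SE 0.16, edgeR adjusted p 0.0242) and 0.47 in STAT3KO (SE 0.16, edgeR adjusted p 0.0913, and 0.00546 with the block). The WT call was lost without WT CD4 replicate 1 (edgeR adjusted p 0.113) or WT CD8 replicate 2 (0.128). With the loss of STAT3 the log2 fold change was 0.24 in CD4 (95% interval -0.12 to 0.60) and 0.088 in CD8 T cells (-0.27 to 0.45), and neither was called, with or without the block.

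Bbc3 (chromosome 7, 16309583 to 16318334, plus strand), the gene of PUMA and a p53 target, had the widest lineage difference of the 10. It was 51.2 and 37.9 CPM (CD4, WT), 49.0 and 30.2 (CD4, STAT3KO), 19.8 and 14.1 (CD8, WT) and 21.8 and 13.3 (CD8, STAT3KO). Replicate 1 was above replicate 2 in every group, and all CD4 libraries were above all CD8 libraries. WT CD8 T cells had 38.1% of the CPM of WT CD4 T cells (log2 change -1.39, SE 0.32, edgeR adjusted p 0.0175). That call was lost without WT CD4 replicate 1 (edgeR adjusted p 0.0716) or WT CD8 replicate 2 (0.0878). In STAT3KO the log2 fold change was -1.18 (SE 0.32, edgeR adjusted p 0.0517, 4.17e-05 with the block, and 0.00249 by DESeq2). WT and STAT3KO libraries overlapped in both lineages, and the 95% intervals of the STAT3KO effect were wide (-0.89 to 0.55 in CD4 and -0.70 to 0.79 in CD8 T cells).

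Pmaip1 (chromosome 18), the gene of NOXA, was 329 and 233 CPM (CD4, WT), 257 and 183 (CD4, STAT3KO), 231 and 174 (CD8, WT) and 171 and 162 (CD8, STAT3KO). Here too replicate 1 was above replicate 2 in every group. The log2 fold change with the loss of STAT3 was -0.35 in CD4 (SE 0.23, edgeR adjusted p 0.372) and -0.29 in CD8 (SE 0.23, edgeR adjusted p 0.565). With the replicate block the CD4 value was called as lower (edgeR adjusted p 0.0282), and so were the CD8 against CD4 values in WT (-0.47, edgeR adjusted p 0.00468) and STAT3KO (-0.38, 0.0203), none of which was called without it.

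Bid (chromosome 6, 120893119 to 120916824, minus strand) encodes a protein that links death receptors to the mitochondrion. Its CPM was 36.7 and 43.1 (CD4, WT), 45.9 and 45.3 (CD4, STAT3KO), 56.0 and 55.2 (CD8, WT) and 58.5 and 54.6 (CD8, STAT3KO). CD8 libraries were above CD4 libraries in each genotype. The CD8 against CD4 log2 fold change was 0.48 in WT (SE 0.11, edgeR adjusted p 0.0184) and 0.31 in STAT3KO (SE 0.11, edgeR adjusted p 0.117, and 0.0376 with the block). The WT call was lost without WT CD4 replicate 1 or either WT CD8 library (edgeR adjusted p 0.0737 to 0.108). In GENCODE M21, 17.7% of the exon bases of Bid also lie in exons of Bcl2l13 on the opposite strand. The strand setting of the counting is not given in the sources used here. In the deposited table the span of Bid met that of no other gene. Bcl2l13 had 1622 to 2433 counts per library and was itself higher in WT CD8 than in WT CD4 T cells (log2 change 0.33, edgeR adjusted p 0.0484).

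**Figure D2:**
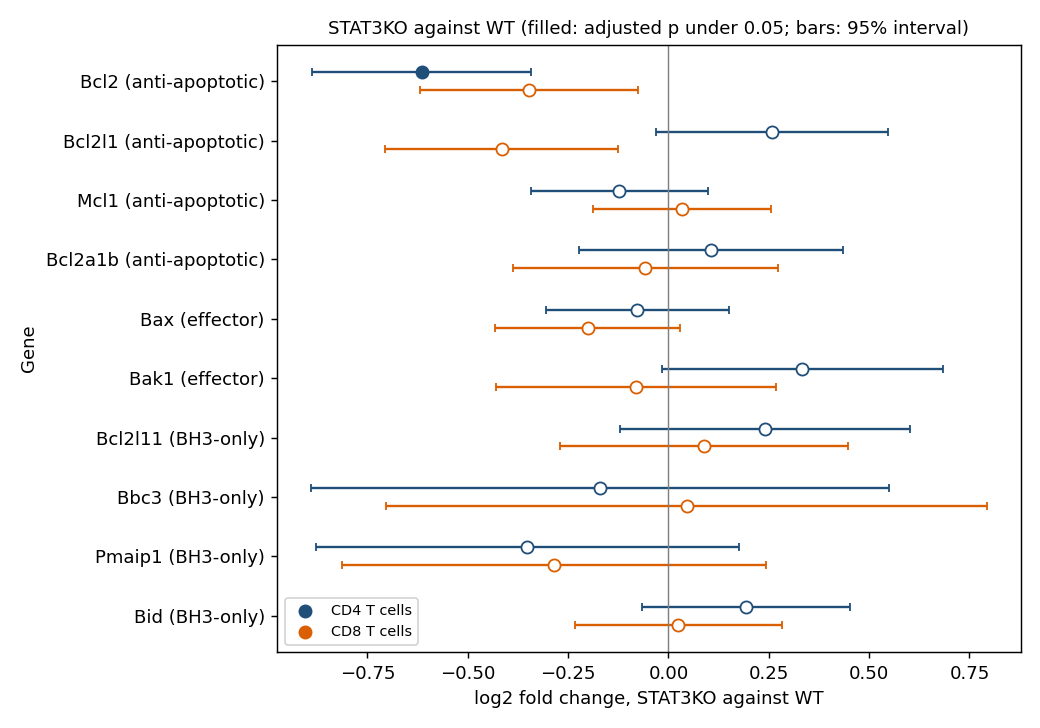
log2 fold change of each gene (y axis) in STAT3KO against WT T cells, in CD4 (blue) and CD8 (orange), with points for the edgeR estimate, bars for its 95% interval and filled points for an adjusted p under 0.05. Only Bcl2 in CD4 T cells (-0.61) is filled, and the Bcl2l1 estimates lie on opposite sides of 0 (0.26 and -0.42).

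**Figure D3:**
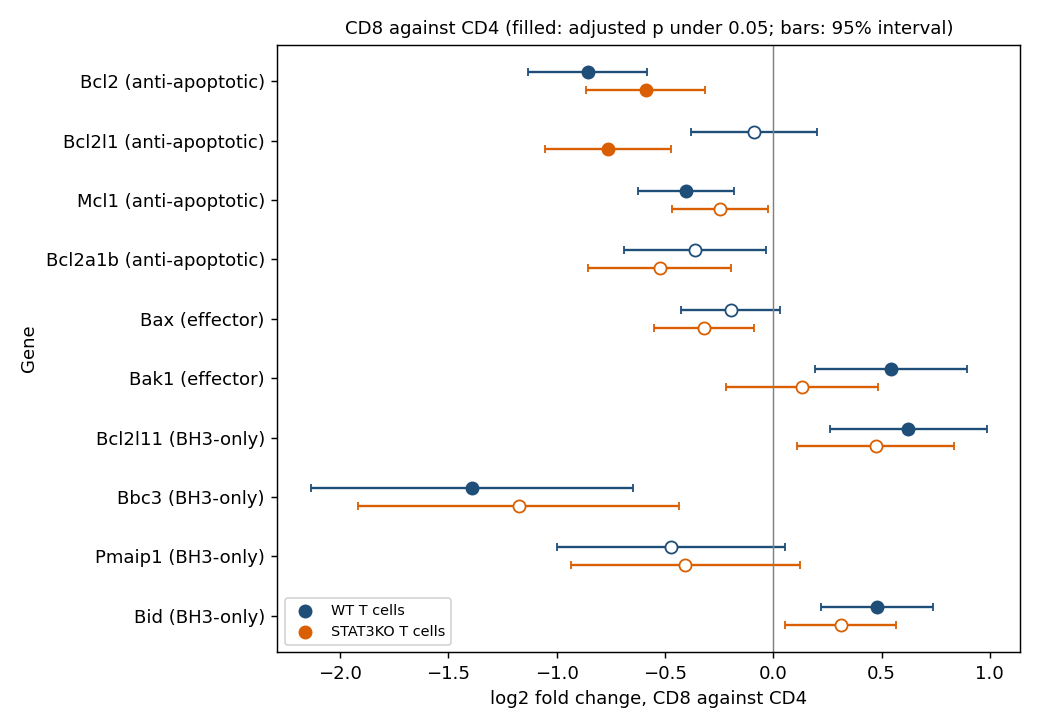
log2 fold change of each gene (y axis) in CD8 against CD4 T cells, in WT (blue) and STAT3KO (orange), drawn as in the plot of the STAT3KO effect. In WT, 6 genes are filled, from -1.39 for Bbc3 to 0.62 for Bcl2l11, and in STAT3KO Bcl2 (-0.59) and Bcl2l1 (-0.76).

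Levels of different genes were set side by side as deposited RPKM, which divide by exon length. On this scale Mcl1 was the highest member in all 4 groups, with a mean RPKM of 175 (CD4, WT), 158 (CD4, STAT3KO), 131 (CD8, WT) and 133 (CD8, STAT3KO). The libraries of Mcl1 lay apart from those of the next member in each group, and those of the second overlapped the next in WT CD4 and STAT3KO CD8 T cells. Second came Bcl2a1b in WT CD4 (110.3 RPKM) and STAT3KO CD4 (116), and Bak1 in WT CD8 (98.8) and STAT3KO CD8 T cells (92.8). In WT CD4 T cells the order went on with Pmaip1 (105.8, not apart from Bcl2a1b), Bax (84.8), Bak1 (68.2) and Bcl2 (39.7), and Bcl2l11, Bbc3, Bcl2l1 and Bid lay between 21.1 and 25.0 with overlap between neighbours. Bbc3 was last in the other 3 groups, with 19.7, 8.53 and 8.75 RPKM, but its libraries overlapped those of Bid in STAT3KO CD4 T cells.

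In this order Bcl2 held rank 6 in WT CD4 and rank 8 in the other groups. Its libraries overlapped those of its neighbour Bcl2l1 in STAT3KO CD4 and WT CD8 T cells, so its rank was not resolved there. The RPKM of Bcl2 was 1.69 and 1.49995 times that of Bcl2l11 (CD4, WT), 0.888 and 0.870 times (CD4, STAT3KO), 0.582 and 0.560 times (CD8, WT) and 0.450 and 0.398 times (CD8, STAT3KO). Bcl2 was thus above Bcl2l11 in WT CD4 libraries alone, and the 4 groups did not overlap in this ratio. It is a ratio of messenger RNA and combines values already given. The RPKM of Bcl2l1 was 0.611 and 0.492 times that of Bcl2 in WT CD4 libraries and between 0.883 and 1.02 times in the other 6. Together the 4 survival genes made up 49.2% and 53.7% of the summed RPKM of the 10 members (CD4, WT), 48.6% and 52.7% (CD4, STAT3KO), 42.7% and 46.1% (CD8, WT) and 44.5% and 46.3% (CD8, STAT3KO). This share was higher in CD4 than in CD8 libraries and overlapped between genotypes. It includes Bcl2a1b, whose counts are uncertain, and leaves out the copy Bcl2a1d.

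**Figure D4:**
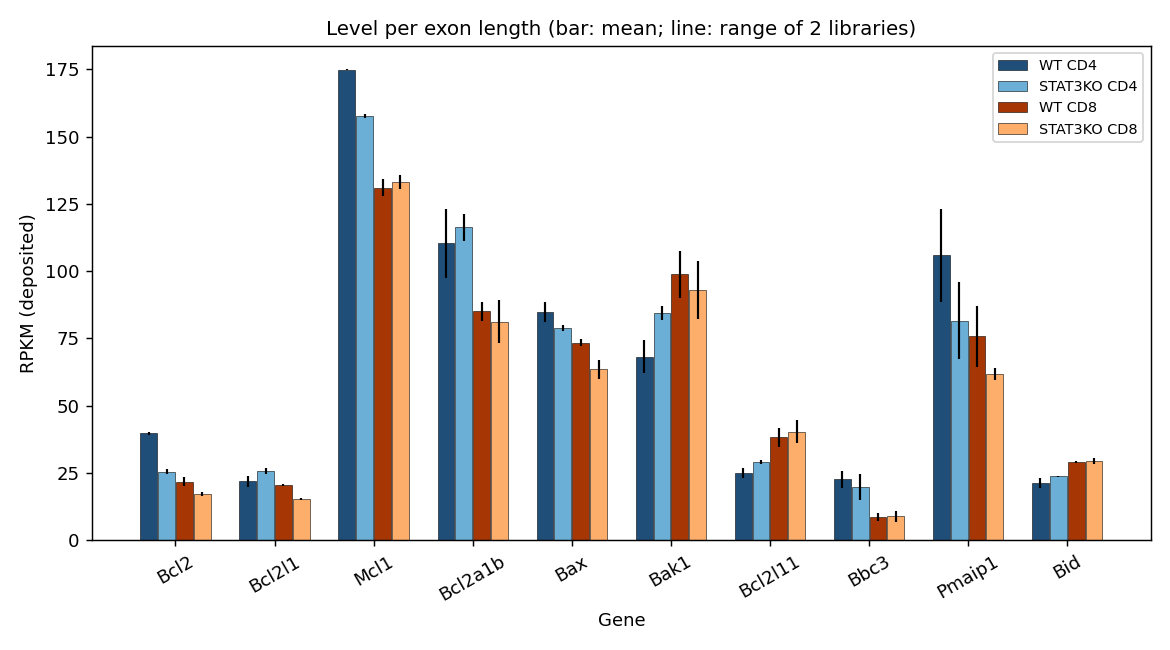
Deposited RPKM of each gene (y axis) in the 4 groups, with bars for the mean and lines for the range of 2 libraries. Mcl1 is the highest gene in every group (131 to 175 RPKM on average), and Bcl2 is below 30 RPKM in every group but WT CD4 (39.7).

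The genes whose pattern was most like that of each member were sought among the 8844 genes whose log2 CPM averaged 3 or more, by Pearson's r of log2 CPM over the 8 libraries. These libraries share groups and replicate numbers, so the values are a description. Bcl2 was closest to Map3k5 (r = 0.994) and Tcf7 (0.992), Bcl2l1 to Zbtb49 (0.948) and Traf2 (0.947), Mcl1 to Itpr2 (0.996) and Kmt5b (0.995), and Bcl2a1b to Ptpn18 (0.963) and its own copy Bcl2a1d (0.952). For the effectors these were Tnfrsf13b (0.973) and Iffo1 (0.967) for Bax and Raly (0.982) and Plekhg3 (0.977) for Bak1. For the BH3-only genes they were Mob3a (0.974) and Vrk3 (0.968) for Bcl2l11, Dvl1 (0.996) and Mcoln1 (0.995) for Bbc3, Crebbp (0.987) and Dennd1a (0.985) for Pmaip1, and Gins4 (0.977) and Dbi (0.976) for Bid. Within the family, r was highest between Bcl2 and Mcl1 (0.902) and lowest between Mcl1 and Bid (-0.959).

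The remaining genes of the family were 16, of which 13 were tested. For the counts of called genes in this and the lists below, edgeR called 11.6% of all genes in CD4 and 2.07% in CD8 T cells. With the block these shares were 30.1% and 18.2%. Bcl2l10 and Hrk had no count in any library, which allows up to between 0.129 and 0.149 CPM per library for counting error alone, and Bok had at most 4 counts. In CD4 T cells the loss of STAT3 called 1 of the 13, Bik, a BH3-only gene, with 12 and 21 counts in WT CD4 and 2 and 1 counts in STAT3KO CD4 libraries. Its summed counts per library size were 0.0874 times those in WT CD4 (95% exact interval 0.0172 to 0.279, for counting error alone; edgeR adjusted p 0.0139), and the call was lost without WT CD4 replicate 2 or either STAT3KO CD4 library (edgeR adjusted p up to 0.117). With the block 4 were called, beside 30.1% of all genes, adding Bmf (log2 change 0.74) and Bnip3l (0.27) as higher and Bcl2l14 (-1.18) as lower. In CD8 T cells 0 of the 13 were called by edgeR, with 1 at an unadjusted p under 0.05, and 1 by DESeq2 or with the block, which was Bnip3l (log2 change 0.54, DESeq2 adjusted p 0.0368). The median log2 fold change of the 13 was 0.17 (CD4) and -0.15 (CD8).

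Among genes of proteins that mitochondria release in apoptosis, the nuclease gene Endog fell with the loss of STAT3 in CD4 T cells. Endog was 5.99 and 7.51 CPM in WT against 2.90 and 3.38 in STAT3KO CD4 T cells (log2 change -1.10, edgeR adjusted p 0.0360). The call was lost when any of the 4 CD4 libraries or either WT CD8 library was left out (edgeR adjusted p up to 0.183). The cytochrome c gene Cycs was called in CD8 T cells with the block alone (log2 change 1.05, edgeR adjusted p 0.0287, and 0.120 without the block).

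Of 7 genes of inhibitor of apoptosis proteins, 2 were called in STAT3KO CD4 T cells, both higher, beside 11.6% of all genes (6.54% higher). Birc5, which encodes survivin and acts in cell division, was 41.7 and 45.2 CPM in WT against 87.3 and 99.995 in STAT3KO CD4 T cells (log2 change 1.11, edgeR adjusted p 0.00143), and was called with any library left out. Xiap, a direct inhibitor of caspases, was 172 and 161 against 240 and 227 CPM (0.49, edgeR adjusted p 0.0312). Xiap also rose in CD8 T cells, from 148 and 137 CPM in WT to 207 and 239.7 in STAT3KO (0.65, edgeR adjusted p 0.0338). It was the single gene of the 7 called there, beside 2.07% of all genes. The CD4 call of Xiap was lost without any single CD4 library or WT CD8 replicate 1 (adjusted p up to 0.200) and the CD8 call without any library but WT CD4 replicate 2 (up to 0.263), while DESeq2 called both (adjusted p 0.00206 and 2.52e-05). With the block Birc3 was also called in CD4 T cells, as lower (-0.28).

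In the death receptor pathway, 3 of 11 genes were called in CD4 T cells, beside 11.6% of all genes. Fas, the death receptor, was 69.3 and 102 CPM in WT against 23.2 and 29.3 in STAT3KO CD4 T cells, and fell by 1.70 on the log2 scale (edgeR adjusted p 0.00628). Its ligand gene Fasl went the other way, from 45.5 and 40.8 to 83.4 and 142 CPM (log2 change 1.39, edgeR adjusted p 0.0114). Tnfrsf1b, which encodes TNF receptor 2, a receptor without a death domain, was 393 and 365 against 548 and 573 CPM (0.56, edgeR adjusted p 0.0283). The call of Fas was lost without STAT3KO CD4 replicate 1 (edgeR adjusted p 0.0563), that of Fasl without WT CD4 replicate 2 (0.0689), and that of Tnfrsf1b without any single CD4 library or WT CD8 replicate 1 (up to 0.152). With the block Tradd was also called as higher (log2 change 0.35). The CD8 comparison called 0 of the 11 by edgeR or DESeq2, and 0 had an unadjusted p under 0.05.

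Of 13 genes of p53 and its targets, 3 were called in CD4 T cells, beside 11.6% of all genes. Perp was higher (5.39 and 5.58 CPM in WT against 10.6 and 9.14 in STAT3KO CD4 T cells, log2 change 0.84, edgeR adjusted p 0.0125), and so was Ccng1 (255 and 273 against 336 and 368 CPM, 0.42, edgeR adjusted p 0.0414). The nuclease gene Aen was lower (24.6 and 27.3 against 18.4 and 18.6 CPM, -0.49, edgeR adjusted p 0.0319). Ccng1 was not called with any library left out, and Perp and Aen lost their calls without WT CD4 replicate 2 or STAT3KO CD4 replicate 1, among others. With the block 6 were called, beside 30.1% of all genes, adding Trp53 (0.49) and Sesn2 (0.54) as higher and Trp53inp1 (-0.29) as lower. Among CD8 T cells, Trp53inp1 was called as higher (257 and 285 CPM in WT, 394 and 470.1 in STAT3KO, log2 fold change 0.67, edgeR adjusted p 0.0411), a call that was lost without any library but WT CD4 replicate 1, and DESeq2 and the block added Ccng1 (0.50) and Aen (-0.49).

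Of 9 regulators of MCL-1 and BIM, such as the ubiquitin ligase genes Huwe1 and Fbxw7 and the FOXO transcription factor genes, 0 were called by edgeR in either lineage. At an unadjusted p under 0.05 there were 2 in CD4 (Fbxw7, log2 fold change 0.38, and Dynll1, 0.54, both also called by DESeq2 and with the block) and 1 in CD8 T cells, with 0 called there by DESeq2 and 1 with the block (Dynll1, 0.45).

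All 10 proliferation genes had a higher estimate in STAT3KO than in WT CD4 T cells (median log2 fold change 1.12). Of these, 8 were called by edgeR, 9 by DESeq2 and 10 with the block. The number called varied when 1 library was left out. For CD8 T cells 0 were called by edgeR or DESeq2, with 4 at an unadjusted p under 0.05 and 4 with the block (Mki67, Top2a, Pcna and Ccna2, log2 fold change 0.32 to 0.45). Between the lineages, all 10 had a higher estimate in CD8 than in CD4 T cells in both genotypes. Of these, 10 were called in WT, and 5 in STAT3KO by edgeR against 10 by DESeq2 and 10 with the block. Birc5, named above, was likewise higher in WT CD8 than in WT CD4 T cells (log2 change 1.81, edgeR adjusted p 0.000107).

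**Figure D5:**
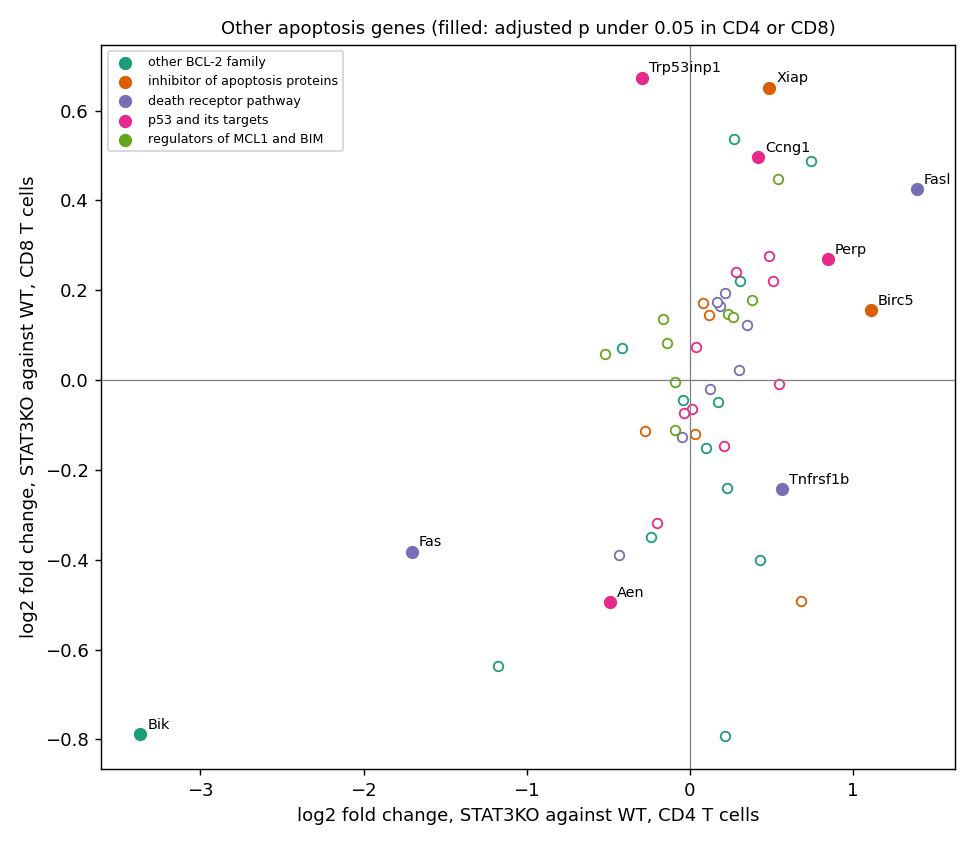
log2 fold change with the loss of STAT3 of each tested gene of 5 other apoptosis lists, in CD4 (x axis) and CD8 T cells (y axis), with colours for the lists and filled, named points for an adjusted p under 0.05 in either lineage. Bik lies far left (a fit on 1 to 21 counts), Fas (-1.70) and Fasl (1.39) lie at opposite ends in CD4 T cells, and the single named gene called in both lineages is Xiap (0.49 and 0.65).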

How the data were processed

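The members and gene lists were chosen with earlier results of these data known. The authors aligned single-end reads with STAR to mm10 and counted them per RefSeq gene with HTSeq. They deposited raw counts and RPKM (reads relative to exon length and to the library), and the strand setting and library kit are not given consistently in the sources used here. The growth and treatment text of the labels describes a cell line, does not match spleen T cells and was not used. The counts were filtered with filterByExpr at a minimum count of 10, scaled by TMM, and fitted in edgeR 4.0.16 (R 4.3.3, quasi-likelihood test, two-sided, Benjamini-Hochberg over 12428 genes, called at an adjusted p under 0.05), after a test on simulated data. All libraries entered 1 fit with a mean per group. DESeq2 1.42.0, limma 3.58.1 on log2(RPKM + 1) and log2(RPKM + 0.1), other scalings and filters, the 4 libraries compared alone, and each library left out were alternatives.

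Libraries with the same replicate number deviated together from their group means (r between 0.424 and 0.671 for the 6 pairs of groups). The numbers were therefore entered as a block in an alternative fit, while the main fit and the fits without 1 library left them out. That a number marks a pairing is a reading from the data, since the labels do not say what it marks. Replicates differed well beyond sampling noise. All 10 members were named, with the called list genes of largest log2 fold change (up to 4 per list and STAT3KO comparison), the 2 genes most like each member, and Stat3, Cd4, Cd8a and Cd8b1. Promoters are from RefSeq (GRCm38.p6), and coordinates are those of the deposited table. Gene names of 26 rows had become dates and were kept. Protein sequences were not analysed here. Some genes of the lists are not reported here. Limits for a count of 0 used 3 counts and cover counting error only.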

Additional observations from a re-analysis of the deposited data

Results flagged for a closer look

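Bcl2l1 was singled out because the STAT3KO libraries were both higher than WT in CD4 T cells and both lower than WT in CD8 T cells. The difference of the effects, CD8 minus CD4, was -0.67 on the log2 scale (edgeR adjusted p 0.312, and 0.0397 with the replicate block). With 1 library left out it ranged from -0.82 to -0.53, with adjusted p between 0.153 and 0.839.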

How the results depend on the processing

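With the replicate block, the members called numbered 3 for the loss of STAT3 in CD4 T cells, 2 in CD8 T cells, 1 for the difference of these effects and 9 for CD8 against CD4 in STAT3KO, and the calls over all genes numbered 3747, 2258, 403, 5232 (CD8 against CD4 in WT) and 3689. The block changed no call of a member other than those given in the report. With only the 4 libraries compared, 2 members were called for CD8 against CD4 in WT and 4 in STAT3KO, beside 1919 and 1676 of all genes. For the loss of STAT3 in CD8 T cells 37 genes were called, and the difference of effects could not be fitted. For CD8 against CD4 in STAT3KO, 5 members were called by DESeq2, beside 1978 of all 12428 genes. The edgeR likelihood-ratio test called 4, beside 2010 of 12428 genes. With no filter 4 were called, beside 1663 of 17623 genes, and with a filter at 50 counts 4, beside 1604 of 10548. For the loss of STAT3 in CD8 T cells, 885 genes were called by DESeq2, 815 by the likelihood-ratio test and 454 with no filter, and for the difference of effects 188, 137 and 44, with 13 by limma on log2(RPKM + 1). The cause of these shifts was not tested.

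When each library was left out in turn, the members called ranged from 0 to 1 for the loss of STAT3 in CD4, from 0 to 0 in CD8 and for the difference, from 2 to 6 for CD8 against CD4 in WT and from 0 to 3 in STAT3KO. Calls over all genes ranged from 412 to 1307, 7 to 224, 0 to 0, 1546 to 2598 and 457 to 1554.

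No member that was called changed its direction. Scaling by library totals turned the log2 fold change of Mcl1 (-0.0091) and Bid (-0.017) in CD8 T cells with the loss of STAT3. With 1 library left out, some uncalled values crossed 0. For the loss of STAT3 in CD4 T cells these were Bcl2a1b (-0.070 to 0.26) and Bbc3 (-0.58 to 0.14), and in CD8 T cells Mcl1 (-0.020 to 0.072), Bcl2a1b (-0.19 to 0.054), Bcl2l11 (-0.098 to 0.24), Bak1 (-0.25 to 0.054), Bbc3 (-0.35 to 0.35) and Bid (-0.028 to 0.063). For the difference they were Bcl2l11 (-0.32 to 0.011), Bbc3 (-0.18 to 0.62) and Pmaip1 (-0.19 to 0.34), and for CD8 against CD4 Bcl2l1 in WT (-0.25 to 0.048) and Bak1 in STAT3KO (-0.042 to 0.28). Of the 400 log2 fold changes of members with 1 library left out, 24 changed direction. Of the 490 log2 fold changes of members under the other alternatives, 458 kept their direction and side of the threshold. Counts of calls, of members and of all genes, were less stable. Under all alternatives, those with a library left out included, 131 such counts stayed equal to or within 1.5 times the main count and 47 did not. Bbc3 and Pmaip1 had the widest intervals of the members, at 295 counts or more per library.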
